A study of Mus musculus with 8 samples.

Results

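Ly6C-high monocytes (MCs) of streptozotocin-treated mice were compared with Ly6C-high MCs of control mice across all 16486 genes of the deposited table. The comparison used 3 of the 8 libraries of the series, 1 of type 1 diabetes mellitus (T1DM) mice and 2 of control (CT) mice. For every gene the mean of the 2 CT values was subtracted from the T1DM value, and the difference between the CT values served as the measure of spread. CT mice were male C57/BL6 mice. T1DM mice were male C57/BL6 mice that received 5 daily doses of streptozotocin (STZ), 50 mg/kg per day, starting when they were 8 weeks old, and blood was taken at 20 to 22 weeks. STZ is a toxin that kills pancreatic beta cells, the source of insulin, and is used to model insulin-deficient diabetes. Blood cells of 5 mice per group were pooled, and 100000 CD11b+ Ly6G- Ly6C-high cells were sorted for bulk RNA-Seq. Duplicates were run from a pool, so differences between mice need not show in the CT values, and only 1 T1DM library of this subset was analysed here.

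Ly6C-high MCs, the classical monocytes of the mouse, leave the bone marrow through the receptor Ccr2 and enter inflamed tissue, where they become macrophages or dendritic cells. Those that stay in the blood turn into Ly6C-low nonclassical MCs, which patrol the vessel wall and depend on the nuclear receptor Nr4a1. Diabetes is known to raise monocyte output and to alter their inflammatory, metabolic and antigen-presenting genes.

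The deposited values were log2 expression values from -4.05 to 15.3 in these 3 libraries. On the linear scale they summed to 1024412 and 1020068 in the CT libraries and to 1056360 in the T1DM library. No counts were given, depth is unknown, and levels of different genes were not compared. Each difference below is a log2 difference, T1DM minus CT, in which 1 is a 2-fold change. The sequencer was a NextSeq 500 for CT and a HiSeq 4000 for T1DM samples, and its effect and that of diabetes cannot be told apart. The subset label matched its defining markers, since Ly6c2 was 8.61 and 8.56 in CT and 8.72 in T1DM Ly6C-high MCs, against 4.07, 2.69 and 3.20 in the Ly6C-low libraries. Ccr2 was 10.81, 10.76 and 10.83, higher than its 7.67 to 7.77 in the CT and T1DM Ly6C-low libraries. Across the 9075 genes with a mean of at least 3, the mean of the 4 diabetic libraries minus that of the 4 CT libraries had an SD of 0.185, while the T1DM mean minus the mean of db/db (T2DM) libraries had an SD of 0.520. The T1DM and T2DM means are over fewer libraries than the diabetic and CT means, so these SDs are not directly comparable. The ratio of the variances was 0.127. Small shared changes and an adjustment of CT and diabetic libraries to each other cannot be told apart here. Whether such an adjustment was made is not given in the sources used here.

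A gene was called set apart when its difference exceeded 1 in either direction and its T1DM value lay outside both CT values by more than the CT values differed from each other. By this rule 531 genes (3.22%) were set apart as higher and 523 genes (3.17%) as lower in T1DM Ly6C-high MCs. In 265 of these 1054 genes the T1DM value or both CT values were at a bottom value of the gene. Bottom values were taken separately within the CT and within the diabetic libraries. In 214 of the 265 it was both CT values, which leaves no CT spread to exceed. The CT values were exactly equal in 667 genes, and a T1DM value equalled a CT value in 0, so CT and diabetic bottom values differ. Some differences may thus lie between bottom values, which was not tested. The number depended strongly on expression. Among the 5293 genes whose log2 values averaged 5 or more in the 3 libraries, 14 were higher and 11 lower, together 0.472%. Among the 3782 genes between 3 and 5 there were 47 higher and 42 lower. The other 940 lay among genes with a mean under 3, where the CT libraries themselves often differed by more than 1 (488 of 3069 genes between 1 and 3, and 1649 of 4342 genes under 1). The median size of the T1DM difference was 0.161 at a mean of 5 or more, against a median CT replicate difference of 0.125, and 0.58 against 0.69 for genes under 1. The median difference over all genes was 0.02. Over all genes 36.3% lay above both CT values and 33.5% below both. After adding 1 on the linear scale, which shrinks differences of low values, 222 were set apart as higher and 137 as lower. These shares are the background only for counts of list members above or below both CT values. Counts of members simply higher or lower are against the CT mean and must not be set against these shares. For them the share over all genes was not counted, and only the median difference of 0.02 over all genes is given. Counts of members set apart are to be read against the share set apart in either direction at their level. That share was 12.7% at a mean under 3, 2.35% between 3 and 5 and 0.472% at 5 or more.

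**Figure D1:**
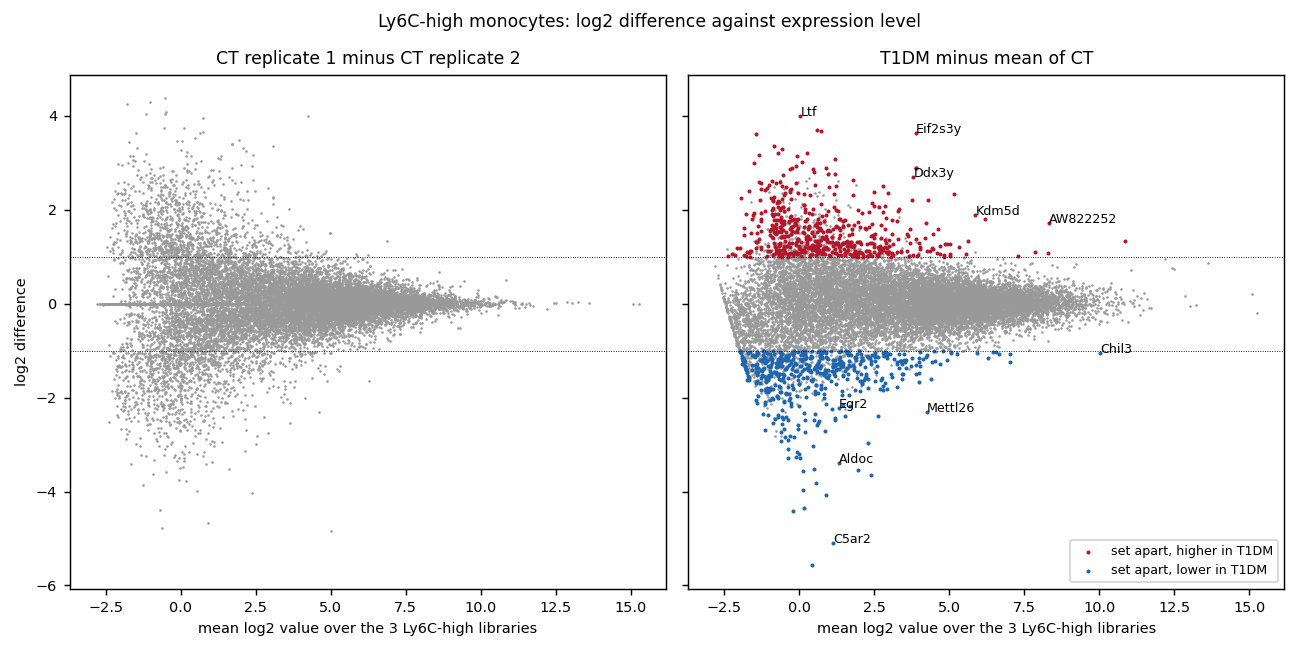
Log2 difference (vertical axis) against the mean log2 value over the 3 Ly6C-high libraries (horizontal axis), 1 point per gene. The left panel shows CT replicate 1 minus replicate 2 and the right panel T1DM minus the CT mean, with the 531 genes set apart as higher in red, the 523 set apart as lower in blue and dotted lines at a difference of 1 in either direction. Both clouds widen toward low values, and at a mean of 5 or more only 25 genes are set apart.

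limma, with its trend option and all 8 libraries in the fit, called 0 genes (0%) at an adjusted p under 0.01 with a difference over 1 in either direction, while 1667 genes had an unadjusted p under 0.05. This test assumes that the lone T1DM library varies like the CT libraries, and its p-values measure only the spread of samples that may be technical duplicates. Hbb-bs, a beta-globin gene, was the only gene with an adjusted p under 0.01 (limma, adjusted p = 0.00957), at a difference of 0.87, and 54.4% of its 31-base sequences also occur in other genes. The differences described here are therefore those of 1 library from 2, set against the CT spread.

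The 11 named genes that were higher at a mean of 5 or more differed by 1.01 to 1.89. Kdm5d, a Y-linked histone demethylase, had values of 5.12 and 5.37 in CT and 7.13 in T1DM Ly6C-high MCs. Atp2b4, a calcium pump of the plasma membrane, stood at 5.71 and 5.47 in CT and at 7.39 in T1DM, a difference of 1.80. In Ly6C-low MCs Atp2b4 was 6.04 in T1DM and 6.46 and 6.33 in CT. AW822252 had values of 7.79, 7.71 and 9.46, which is 3.27-fold higher in T1DM. Hpgd, which inactivates prostaglandins, was 7.01 and 6.88 in CT and 7.96 in T1DM (1.02), and it differed by 1.04 in Ly6C-low MCs as well. Each of these T1DM values lay well above both CT values.

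Zfp318, a zinc-finger protein needed for IgD expression, was 4.63 and 4.58 in CT and 5.86 in T1DM. Prkci, an atypical protein kinase C, was 4.84, 4.99 and 6.12. Zbtb20, a transcriptional repressor, was 8.01, 7.86 and 9.02. Rnf150 (difference 1.05) and Plxna4, a semaphorin receptor (1.01), were higher by similar amounts in the Ly6C-low subset (1.10 and 1.01). Rps18, a protein of the small ribosomal subunit, was 7.48 and 7.52 in CT and 8.61 in T1DM. Hba-a1, an alpha-globin gene, was 10.66, 10.14 and 11.74, and 75.5% of its 31-base sequences also occur in other genes, chiefly Hba-a2.

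The 9 named genes that were lower at this level differed by -1.08 to -1.03. Chil3, the chitinase-like protein Ym1 and a marker of classical MCs, was 10.37 and 10.39 in CT and 9.32 in T1DM, 2.08-fold lower, and it shares 41.5% of its 31-base sequences. Pecam1, the adhesion molecule CD31, was 7.02 and 7.03 in CT and 5.96 in T1DM. C5ar1, the receptor of the complement fragment C5a, was 5.48, 5.32 and 4.35. Ear2, a ribonuclease of the eosinophil-associated family, was 7.35, 7.42 and 6.31, and 60.5% of its 31-base sequences are shared with other genes. All 4 had T1DM values under the CT range by more than the CT spread.

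Treml4, a receptor related to TREM proteins, was 6.90 and 6.69 in CT and 5.77 in T1DM. L1cam, a neural-type adhesion molecule, was 6.30, 6.23 and 5.22. Zbtb18 (-1.07), Dnah8 (-1.04) and Fam168a (-1.04) completed the group. Pecam1 had the opposite direction in Ly6C-low MCs, with 7.29 and 7.27 in CT and 7.84 in T1DM. Treml4 and L1cam were also higher there, by 0.43 and 0.33.

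**Figure D2:**
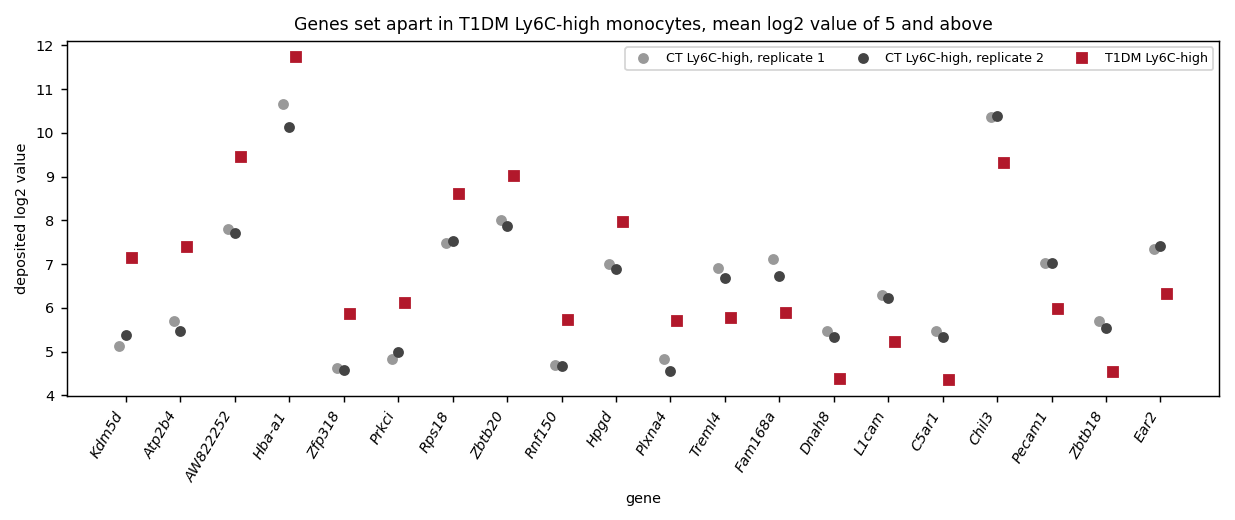
Deposited log2 values (vertical axis) of the 20 named genes with a mean of at least 5 (horizontal axis) in the 2 CT Ly6C-high libraries (grey and black circles) and the T1DM Ly6C-high library (red squares). The CT values nearly coincide for Pecam1, Chil3 and Rps18, and the T1DM value lies about 1 above or below them, up to 1.89 for Kdm5d.

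Y-linked genes gave the largest differences among genes with a mean of 3 to 5. Eif2s3y, a translation initiation factor subunit, was 2.39 and 2.96 in CT and 6.32 in T1DM (3.64). Ddx3y, an RNA helicase, was 3.41, 2.41 and 5.61 (2.70). Uty was 4.26, 2.68 and 4.77, above both CT values but with a CT difference of 1.58. The same genes were higher in T1DM than in CT Ly6C-low MCs, by 1.67 for Kdm5d, 2.39 for Eif2s3y, 2.80 for Ddx3y and 0.96 for Uty. For all 4 genes, each of the 4 diabetic libraries, db/db included, lay above each of the 4 CT libraries of both subsets, and in the T2DM Ly6C-high library Eif2s3y was 6.25, Ddx3y 6.10 and Kdm5d 6.78. Their X-linked partners Kdm5c, Eif2s3x, Ddx3x and Kdm6a were lower by 0.28 to 0.41. All mice were male by the study's methods, and the part of mixed sexes, mapping or sequencer in these values was not tested.

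Other genes set apart as higher at a mean of 3 to 5 included Als2cl, Simc1, Lrsam1, Vars2, Gatb and Mul1. Simc1 was 2.57 and 2.69 in CT and 4.59 in T1DM. Vars2, the mitochondrial valyl-tRNA synthetase, was 2.91, 2.45 and 4.44. Gatb, a subunit of a mitochondrial amidotransferase that completes glutaminyl-tRNA, was 2.68, 2.54 and 4.10. Mul1, a mitochondrial ubiquitin ligase, was 3.12, 3.08 and 4.59. Lrsam1, also a ubiquitin ligase, differed by 1.78 and Als2cl by 2.02, the latter with a CT difference of 1.26. Fam177a differed by 1.48, but 98.5% of its 31-base sequences occur in other genes.

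Mettl26 was the largest of the lower genes at a mean of 3 to 5. It had values of 5.05 and 5.03 in CT and 2.74 in T1DM Ly6C-high MCs, a difference of -2.30, against 4.13, 4.15 and 4.45 in Ly6C-low MCs. Itpr3, an inositol trisphosphate receptor that releases calcium from the endoplasmic reticulum, was 4.59 and 4.48 in CT and 2.86 in T1DM. Ncapd2, a condensin subunit, was 4.01, 3.95 and 2.37, and Top2a, the topoisomerase of dividing cells, was 4.06, 3.98 and 2.64. Both of these cell division genes were higher in T1DM than in CT Ly6C-low MCs, by 1.82 and 1.19. Epha4, an ephrin receptor, was lower, with a difference of -1.503, Blzf1 by 1.49, Ikzf2, the transcription factor Helios, by 1.49 and Tmco6 by 1.37.

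Nonclassical MC markers were lower in T1DM Ly6C-high MCs. Of 15 measured, 13 were lower, 12 lay below both CT values, and the median difference was -0.52, against 0.02 over all genes. Eno3, the muscle-type enolase, was 4.84 and 5.02 in CT and 3.71 in T1DM, and it was set apart together with Treml4. Cd300e, an activating receptor, was 3.29, 3.54 and 2.46. Nr4a1 was 8.11, 8.08 and 7.34, which is 1.69-fold lower in T1DM. Ace, the angiotensin-converting enzyme, was 8.82, 8.998 and 8.39, and Spn, the sialoglycoprotein CD43, was 8.08, 8.09 and 7.64. In each of these genes the T1DM library was the lowest of the 3, and all of them except Nr4a1 were higher in CT Ly6C-low than in CT Ly6C-high MCs.

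Fcgr4, the IgG receptor of nonclassical MCs, was 4.53 and 4.68 in CT and 4.07 in T1DM. Itgal (-0.37), Adgre4 (-0.40), Cd36 (-0.54) and Pglyrp1 (-0.63) also lay below both CT values. Itgax was within the CT spread (5.33, 4.52 and 4.87). Cx3cr1, the fractalkine receptor, stood at 8.59, 8.61 and 8.63, and Cd9, a tetraspanin also present on platelets, was higher by 0.51. The summed linear level of the list was 3486 and 3549 in CT and 2743 in T1DM. In Ly6C-low MCs the order was the other way round, with 13 of 15 markers higher in T1DM, a median of 0.34 and sums of 4367 and 4323 in CT and 5620 in T1DM. In a sorted bulk sample, fewer cells of a type and less RNA per cell cannot be told apart.

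**Figure D3:**
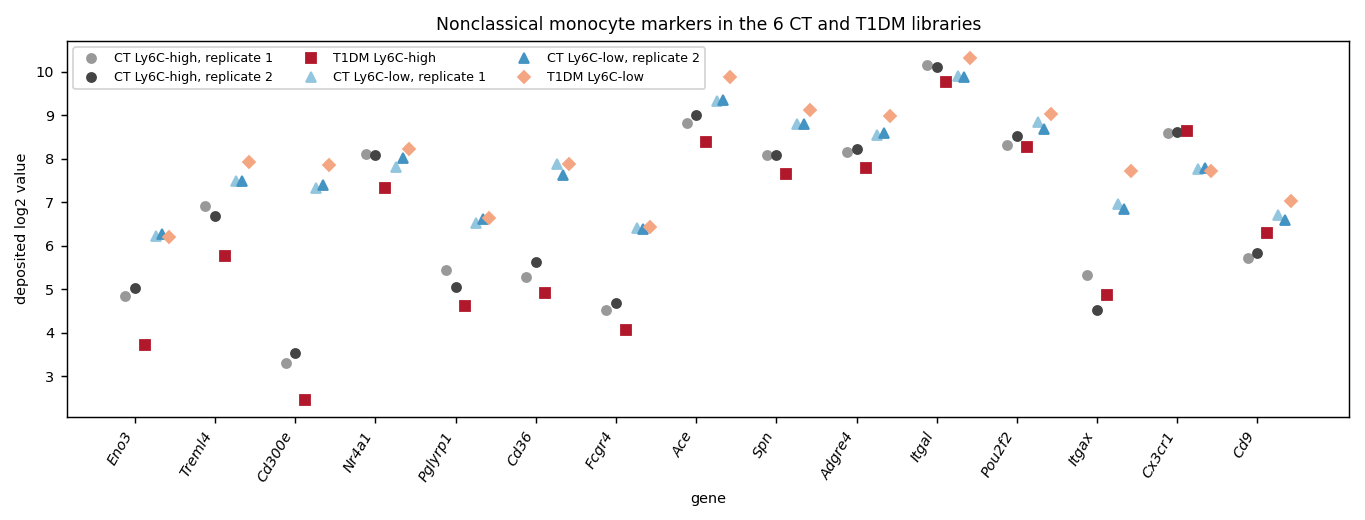
Deposited log2 values (vertical axis) of 15 nonclassical MC markers (horizontal axis, ordered by the T1DM minus CT difference in Ly6C-high MCs) in 6 libraries. Circles are the CT Ly6C-high replicates, red squares T1DM Ly6C-high, triangles the CT Ly6C-low replicates and diamonds T1DM Ly6C-low. The red squares lie below both circles for 12 of the markers, while T1DM Ly6C-low values lie mostly above the triangles.

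Classical MC markers did not share a direction. Of 14 measured, 7 were higher and 7 lower, and the median was 0.00. Fn1, fibronectin, was 12.26 and 12.24 in CT and 12.99 in T1DM, while Hp, haptoglobin, was 8.37, 8.38 and 7.88. Ms4a6c was 8.50, 8.54 and 8.13, Vcan, versican, 9.49, 9.53 and 9.23, and F13a1, a coagulation factor subunit, 10.52, 10.53 and 10.33. Lyz2, lysozyme, was 15.004, 15.02 and 15.23. With CT values within 0.05 of each other, all these values lay outside both CT libraries, in opposite directions and by less than 2-fold. Chil3, described above, was the only marker of this list set apart, at -1.06.

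RNA of other blood cells differed as well. All 12 platelet markers were higher and above both CT values in T1DM Ly6C-high MCs, with a median of 0.67. Ppbp, the platelet chemokine precursor, was 8.27 and 8.03 in CT and 8.98 in T1DM. Pf4, platelet factor 4, was 5.24, 5.49 and 6.23, and Treml1, which was set apart, was 2.56, 2.27 and 3.55. The summed level of the list was 685 and 652 in CT and 1051 in T1DM. The median in Ly6C-low MCs was 0.74, also with 12 of 12 higher.

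All 8 erythroid genes were higher, with 6 above both CT values and a median of 0.66. After quantile normalization the erythroid median was 0.24, so its size depended on the normalization. Hbb-bs was 13.33 and 13.33 in CT and 14.20 in T1DM, and Hba-a2 12.18, 12.17 and 12.93, the latter with 92.6% of its 31-base sequences shared, chiefly with Hba-a1. Alas2, the first enzyme of heme synthesis in red cells, was 8.76, 8.65 and 9.09. The erythroid sum was 20720 and 20500 in CT and 38060 in T1DM. In Ly6C-low MCs all 8 were also higher, with a median of 0.48.

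B cell markers were higher for 18 of 20, with 15 above both CT values, 5 set apart and a median of 0.37. Cd22, an inhibitory B cell receptor, was 3.86 and 4.18 in CT and 5.21 in T1DM. Ighd, the IgD heavy chain, was 3.20, 2.82 and 4.13. Cr2 (1.29), Blk (1.27) and Vpreb3 (1.12) were the others set apart, and Cd79a, the receptor's signalling chain, was 3.90, 3.83 and 4.17. B cell sums were 578 and 566 in CT, 820 in T1DM and 7064 to 8105 in the CT and T1DM Ly6C-low libraries.

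NK cell markers were higher for 13 of 16, with a median of 0.41. Klra8, the receptor Ly49H, was 0.61 and 0.77 in CT and 2.34 in T1DM with 55% of its 31-base sequences shared, and Nkg7, a cytotoxic granule protein, 3.29, 3.36 and 3.86. Tbx21, the transcription factor T-bet, was lower at 0.75, 0.76 and -0.35, and the activating receptor Ncr1 did not leave the CT spread (3.53, 3.15 and 3.47). T cell markers were lower for 13 of 20, with a median of -0.14 and 5 set apart as lower. Cd3e, a chain of the T cell receptor complex, was 2.70 and 2.17 in CT and 0.26 in T1DM. Cd3g (-2.48), Cd8b1 (-1.28), Lef1 (-1.13) and Lck (-1.01) were lower too, while Cd4 was higher by 0.98. T cell sums were 74.4 and 75.5 in CT and 59.1 in T1DM, and the median was -0.47 against CT replicate 1 and -0.11 against replicate 2.

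Granule genes were split. Of 16 measured, 6 were set apart as higher and 0 as lower, with a median of 0.12 (0.41 against CT replicate 1 and 0.21 against replicate 2). S100a9, a subunit of calprotectin, was 0.62 and 1.23 in CT and 3.55 in T1DM, and its partner S100a8 was 1.14, 1.15 and 2.49. Ltf, lactoferrin, was -2.04, -0.55 and 2.71, Retnlg 1.98, 1.46 and 3.87, Mmp9, a gelatinase, 1.11, 0.48 and 2.41, and Ngp 1.53, 1.72 and 2.89. The list sum was 928 and 926 in CT and 950 in T1DM, but the 6 genes set apart had low values and weigh little in it. With members of a mean of at least 1 only, the list median was 0.51. The gate was set to remove Ly6G+ cells, and the part of neutrophils in these differences was not tested. In Ly6C-low MCs the differences of Ltf (-3.25), S100a9 (-2.28) and S100a8 (-2.14) had the other sign. For basophils and mast cells the median was -1.21 (-0.64 and -0.67 against each CT replicate, and 0.06 over members with a mean of at least 1), with 5 of 8 genes lower, Fcer1a set apart as lower (-1.97), Hdc, the histamine-forming enzyme, set apart as higher (1.05) and sums of 15.1, 21.2 and 15.1. Of the other lists, dendritic cell genes had a median of 0.12 over 9 genes, plasmacytoid dendritic cell genes -0.15 over 6 (-0.24 against CT replicate 1 and 0.01 against replicate 2) with Pacsin1 set apart as lower (-1.61), and eosinophil genes 0.27 over 6 with Alox15, a lipoxygenase (1.28), and Serpinb2 (1.82) set apart. The part of platelets, red cells and lymphocytes in the other differences was not tested.

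**Figure D4:**
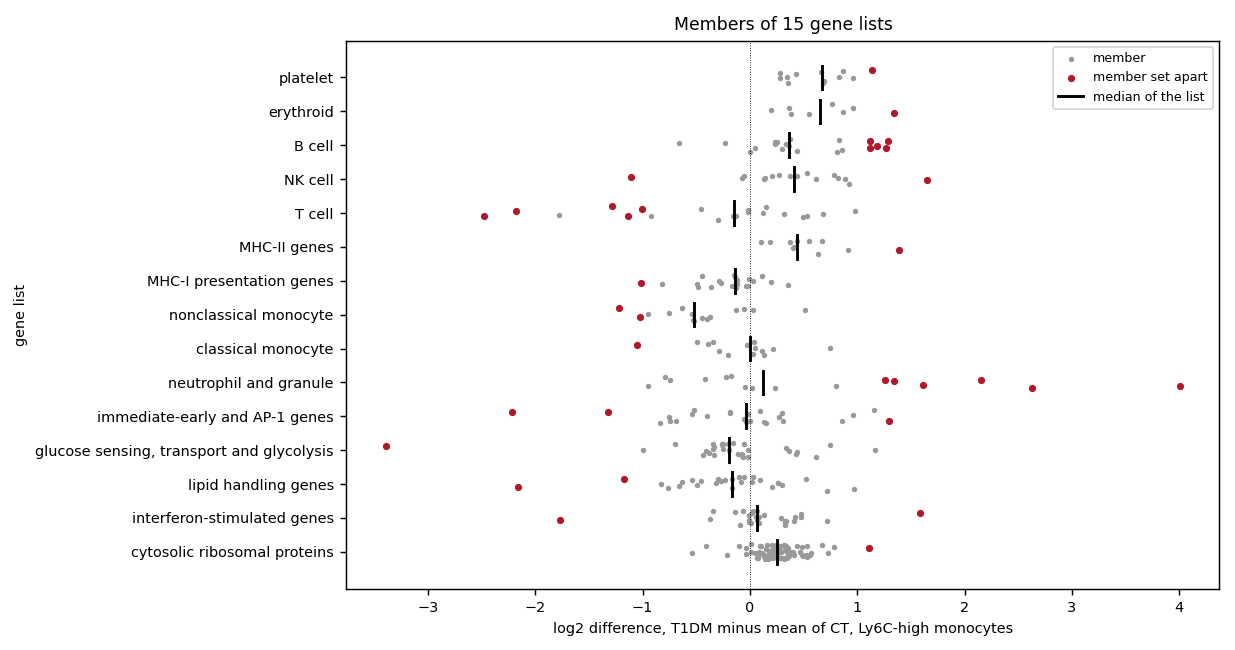
Log2 difference, T1DM minus the CT mean (horizontal axis), for each member of 15 gene lists (vertical axis) in Ly6C-high MCs. Red points are members set apart from the CT values and black bars are list medians, from 0.67 for platelet genes to -0.52 for nonclassical MC markers.

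MHC-II genes, which present antigen to CD4 T cells, were all higher in T1DM Ly6C-high MCs. Of 11, 10 lay above both CT values and the median was 0.44. Cd74, the invariant chain, was 10.24 and 10.26 in CT and 10.69 in T1DM. H2-Ab1, a class II beta chain, was 8.21, 8.19 and 8.75. H2-DMa, which loads peptides on class II molecules, was 7.72, 7.70 and 8.38, 1.59-fold higher. Ciita, the master activator of class II genes, was 6.10, 5.91 and 6.19, and H2-Eb2 (-0.82, -0.20 and 0.88) was the 1 gene set apart.

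The summed MHC-II level was 2328 and 2330 in CT and 3221 in T1DM. In T1DM Ly6C-low MCs 9 of 11 were higher, with a median of 0.35, whereas H2-DMa was 7.61 and 7.61 in CT and 7.60 in T1DM there. B cells also express these genes, and the B cell list was higher in the same library. In the T2DM Ly6C-high library, measured against the same CT libraries, the MHC-II median was -1.60, the platelet median -1.12 and the NK median -1.56. B cell (-0.58) and erythroid medians (-0.30) also had the sign opposite to T1DM. Other T2DM medians had the same sign as in T1DM, at -1.07 for nonclassical MC markers (14 of 15 lower) and 0.37 for S100 genes. So did cytosolic ribosomal protein (0.29) and mitochondrial genome genes (0.52). The part of any adjustment between CT and diabetic libraries was not tested.

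MHC-I presentation genes, which display internal peptides to CD8 T cells, were mostly lower. Of 21, 17 were lower and 14 below both CT values, with a median of -0.14. H2-Q6, a nonclassical class I gene, was 5.24 and 5.01 in CT and 4.11 in T1DM, although it shares 50.3% of its 31-base sequences with other genes. Erap1, which trims peptides in the endoplasmic reticulum, was 6.28, 6.72 and 5.69. Calr, calreticulin, was 7.97, 8.04 and 7.52, and Tap1, a peptide transporter, 7.22, 7.23 and 6.94. Nlrc5, the activator of class I genes, was higher by 0.19 and B2m, the common light chain, lower by 0.14.

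Checkpoint ligands had a median of -0.02 (8 of 19 higher and 0 set apart), and checkpoint receptors one of -0.18 (7 of 20 higher and 3 set apart as lower). Cd274, the ligand PD-L1, was 4.72 and 5.10 in CT and 3.96 in T1DM, a difference of -0.95. Pdcd1lg2, the ligand PD-L2, stood at 0.73, -0.51 and -0.25, Sema4a at 7.65, 7.61 and 7.61 and Nectin2 at 0.08, 0.30 and 0.21. None of these 3 left the CT range by more than the CT spread. Icos, a costimulatory receptor of T cells, was -1.01, 0.17 and -2.27, and Timd4 (-1.44) and Tnfrsf9, the receptor 4-1BB (-1.27), were also set apart as lower. Havcr2, the receptor TIM-3, was 6.12, 5.97 and 5.61. Tnfrsf25, at -0.18, -2.36 and -2.49, left the CT range by less than its CT spread.

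Cytokines and growth factors had a median of 0.02, with 12 of 24 higher and 0 set apart. Tnf was 3.92 and 3.84 in CT and 3.08 in T1DM, a difference of -0.80. Il1b was 4.91, 5.22 and 5.48, and Il15 4.08, 4.04 and 3.81. Gdf3 (3.07, 1.16 and 1.24) did not leave the CT range. Among 15 chemokines, Cxcl9, which attracts activated T cells, was 2.42 and 1.19 in CT and 3.89 in T1DM, while Cxcl13 (0.19, 0.14 and -0.92) and Ccl17 (-1.36, -0.61 and -2.36) were set apart as lower. Ccl22 had equal values of -1.08 in both CT libraries, its lowest CT value, and -0.86 in T1DM. The part of differing CT and diabetic bottom values in this difference was not tested.

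Receptors that guide MCs into tissue had a median of 0.02 over 27 genes, and Pecam1, described above, was set apart among them. The 42 cytokine receptors had a median of -0.06, with the activin receptor Acvr2b (2.14, 2.36 and 0.93) set apart. NF-kB and Toll-like receptor genes had a median of -0.03 over 30. Ptgs2, cyclooxygenase-2, was set apart as higher (1.01) from equal CT values of -2.11, its lowest CT value. The part of differing CT and diabetic bottom values in the Ptgs2 difference was not tested. Tlr5, the flagellin receptor, was 3.78, 2.92 and 4.38. Inflammasome genes had a median of 0.12, with 10 of 14 higher, 0 set apart and Casp1, the enzyme that matures interleukin-1 beta, at 7.05, 7.07 and 7.67.

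Interferon-stimulated genes had a median of 0.06, with 20 of 29 higher, 16 above both CT values and 5 below both. Oasl1, which restrains Irf7 translation, was 3.07 and 3.28 in CT and 4.77 in T1DM. Ifi44 went the other way, at 4.24, 3.46 and 2.07. Isg15 was 4.44, 4.20 and 4.23, and Irf7 7.23, 7.30 and 6.92. The 14 interferon-gamma-inducible GTPases had a median of -0.08, with Gbp6 set apart as lower (3.67, 3.43 and 2.05). For Gbp6, 74.2% of 31-base sequences are shared with other genes.

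Fc receptor and complement genes held the largest single difference of any list. C5ar2, the second receptor of C5a, was 2.97 and 2.72 in CT and -2.26 in T1DM Ly6C-high MCs, against 2.67, 2.45 and 2.74 in the Ly6C-low libraries. The difference of -5.10 (limma SE 0.28) had an adjusted p of 0.204 in limma. With C5ar1, both C5a receptors were set apart as lower. C1qa, a chain of the complement starter C1q, was 0.40, -0.05 and -1.91. Cfb, complement factor B, was 5.02, 5.22 and 4.14, but 75.5% of its 31-base sequences occur in other genes. The complement regulators Cd59a (2.61, 2.04 and 3.48) and Cd55 (difference 0.66) were higher. Over the list 11 of 19 were lower and the median was -0.16 (-0.27 against CT replicate 1 and -0.20 against replicate 2).

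Immediate-early genes, which respond within minutes to cell stimulation, separated into genes that were higher and genes that were lower. Of 25, 10 lay above both CT values and 13 below, and the median was -0.04. Egr2 was 2.04 and 2.08 in CT and -0.15 in T1DM, and Egr1, a zinc-finger factor of the same family, was 4.62, 4.32 and 3.14. Both were higher in T1DM than in CT Ly6C-low MCs, by 1.78 and 0.96. Nr4a1 was lower, as given above, while its relatives were higher, Nr4a3 at 0.13, 0.28 and 1.505 and Nr4a2, which was not set apart, at 1.85, 1.02 and 2.59. Dusp1, a phosphatase that switches off MAP kinases, was 7.45 and 7.47 in CT and 8.32 in T1DM, and it was also higher in Ly6C-low MCs (1.28).

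The 250 bases upstream of Nr4a1, which was lower, and of Dusp1 and Nr4a2, which were higher, are shown because these genes, chosen after their values were seen and none of them set apart, share the core of the cAMP response element (TGACG on either strand, in capitals) and yet differed in direction. The sequences are from RefSeq, build GRCm38.p6, and are printed 5′ to 3′ on the strand of the gene, ending just before its start. They lie at chr15:101266596-101266845 (plus strand) for Nr4a1, chr17:26508473-26508722 (minus strand) for Dusp1 and chr2:57124004-57124253 (minus strand) for Nr4a2.
Nr4a1: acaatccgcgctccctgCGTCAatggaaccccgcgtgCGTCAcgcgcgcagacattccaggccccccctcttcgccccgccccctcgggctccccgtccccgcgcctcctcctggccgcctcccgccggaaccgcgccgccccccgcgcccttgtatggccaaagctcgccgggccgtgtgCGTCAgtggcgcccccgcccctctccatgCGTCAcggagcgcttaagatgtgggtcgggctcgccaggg
Dusp1: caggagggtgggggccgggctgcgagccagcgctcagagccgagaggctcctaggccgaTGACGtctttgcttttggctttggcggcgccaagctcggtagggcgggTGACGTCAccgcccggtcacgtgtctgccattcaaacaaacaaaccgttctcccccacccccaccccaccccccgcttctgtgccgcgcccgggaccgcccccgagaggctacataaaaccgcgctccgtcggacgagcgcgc
Nr4a2: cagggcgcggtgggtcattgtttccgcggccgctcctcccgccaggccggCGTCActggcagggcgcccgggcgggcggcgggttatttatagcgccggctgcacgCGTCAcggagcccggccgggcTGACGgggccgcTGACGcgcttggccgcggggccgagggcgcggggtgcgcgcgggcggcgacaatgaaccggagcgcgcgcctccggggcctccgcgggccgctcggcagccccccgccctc
Nr4a1 and Nr4a2 hold 4 cores each. Dusp1 holds 3, of which 2 overlap in the full element TGACGTCA. Of all 32851 such windows in the RefSeq table, 17.8% hold at least 1 core, 0.137% hold at least 4 and 1.55% hold the full element. A match of letters is a description of the window and not a binding site.

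Glucocorticoid-responsive genes were higher for 11 of 15, with a median of 0.20 and 0 set apart. Tsc22d3, known as GILZ, was 7.37 and 7.44 in CT and 8.24 in T1DM. Per1, a clock gene, was 5.89, 5.85 and 6.35, and Fkbp5 was 4.34, 4.00 and 4.23. Tsc22d3 and Per1 thus lay above both CT values, as Dusp1 did, and Fkbp5 lay between them.

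Genes of glucose transport and glycolysis were mostly lower. Of 31, 24 were lower and 21 lay below both CT values, with a median of -0.20 (-0.15 against CT replicate 1 and -0.09 against replicate 2). Aldoc, an aldolase isoform, was 2.25 and 2.67 in CT and -0.93 in T1DM, the 1 gene set apart. The hexokinase genes Hk1 (5.87, 5.63 and 5.37) and Hk2 (6.35, 6.86 and 6.16), the first enzymes of the pathway, were lower, as was the lactate exporter Slc16a3 (5.73, 5.68 and 5.30). Pfkm, a muscle phosphofructokinase, was 2.32, 2.48 and 1.40. Pgk1 (-0.25, with 54.7% of its 31-base sequences shared), Ldha (-0.26) and Pkm (-0.06) differed by less.

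Of the 7 genes that were higher, Txnip and Arrdc4 are known to be induced by glucose. Txnip, which the glucose sensor ChREBP and its relative MondoA switch on, was 9.33 and 9.31 in CT and 9.76 in T1DM, 1.35-fold. Arrdc4, a related arrestin, was 6.36, 6.15 and 6.87. Gapdh was 9.47, 9.43 and 9.78, the glucose transporter Slc2a3 4.90, 5.39 and 5.89, and Slc2a8 was higher by 1.17, while the transporter Slc2a1 stood at 5.61, 5.42 and 5.31. Txnip and Arrdc4 also lay above the CT mean in Ly6C-low MCs, by 0.33 and 0.14. Insulin and IGF1 signalling genes had a median of 0.00 over 30. Insr, the insulin receptor, stood at 7.70, 7.57 and 7.77 and Irs2, an adaptor of that receptor, at 5.28, 5.50 and 5.91. Igf2r (3.21, 3.21 and 2.10) and Socs1, a brake on cytokine signals (0.78, 1.31 and -0.26), were set apart as lower, and both were higher in T1DM Ly6C-low MCs.

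Lipid handling genes were lower for 18 of 28, with a median of -0.17 (-0.23 against CT replicate 1 and -0.26 against replicate 2). Nr1h3, the oxysterol receptor LXR-alpha, was 2.24 and 2.11 in CT and 0.01 in T1DM, 4.48-fold lower. The cholesterol exporters Abca1 (5.10, 5.43 and 4.63) and Abcg1 (7.51, 7.57 and 6.88) were lower. Pparg, a fatty acid receptor, was 3.47, 3.60 and 2.37, and the fatty acid binding protein Fabp4 2.29, 2.40 and 1.52. The lower genes Pparg and Fabp4 were more abundant in CT Ly6C-low than in CT Ly6C-high MCs, like most nonclassical markers. In contrast, Scd1, a fatty acid desaturase, was 3.73, 3.75 and 4.71. Cholesterol synthesis genes had a median of 0.04 over 25 with 0 set apart.

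Cytosolic ribosomal protein genes were higher for 82 of 88, and 80 lay above both CT values. The median was 0.25, small but larger than the median CT replicate difference of the list (0.01). Rpsa was 8.92 and 8.91 in CT and 9.70 in T1DM, Rpl3 8.64, 8.65 and 9.18, and Rps26 6.93, 7.04 and 7.55. In Ly6C-low MCs the median was -0.28, with 79 of 88 lower. Ribosomal protein genes have many near-copies, and 37.6% of the 31-base sequences of Rpl3 and 31% of those of Rpsa also occur in other genes.

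Genes of the mitochondrial genome had a median of 0.23 with 9 of 12 higher. mt-Co3, of whose 31-base sequences 99.9% also occur in other annotated genes, was 8.95 and 8.60 in CT and 9.32 in T1DM, and mt-Nd6 5.74, 5.78 and 5.31. All 12 were lower in T1DM than in CT Ly6C-low MCs. Nuclear-encoded respiratory chain subunits had a median of 0.07 over 81 with 0 set apart.

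Cell cycle genes had a median of 0.00 over 26 (-0.28 against CT replicate 1 and 0.02 against replicate 2). Top2a, Ccnb1 (-1.21) and Bub1 (0.49, -0.48 and -1.52) were set apart as lower, and Mcm2, part of the replicative helicase, was 3.48, 2.43 and 1.59. BCL2 family genes, which decide on cell survival, were lower for 11 of 15, with a median of -0.21 (-0.16 against CT replicate 1 and -0.33 against replicate 2). Bcl2a1a was 2.36 and 2.29 in CT and -0.06 in T1DM, and its copy Bcl2a1d was 3.63, 3.38 and 2.83. As 79.6% of the 31-base sequences of Bcl2a1a occur in other genes, chiefly Bcl2a1d, the split between them is uncertain. Mcl1, the survival factor of myeloid cells, was higher by 0.24.

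The S100 list had a median of 0.31 with 9 of 10 higher and above both CT values (0.41 and 0.15 against each CT replicate), led by S100a8 and S100a9. Hypoxia-inducible genes had one of 0.12 over 14, with Adm set apart as higher (1.01) and Pdk1 as lower (-1.14). Vegfa stood at -2.15 and 1.47 in CT and -2.10 in T1DM. Small medians were found for unfolded protein response genes (-0.06 over 20, with Chac1 set apart as higher at 1.06), NRF2 antioxidant genes (-0.05 over 23), NADPH oxidase subunits (0.02 over 7), scavenger and C-type lectin receptors (0.01 over 19), myeloid transcription factors (0.00 over 29) and coagulation genes (-0.06 over 13).

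**Figure D5:**
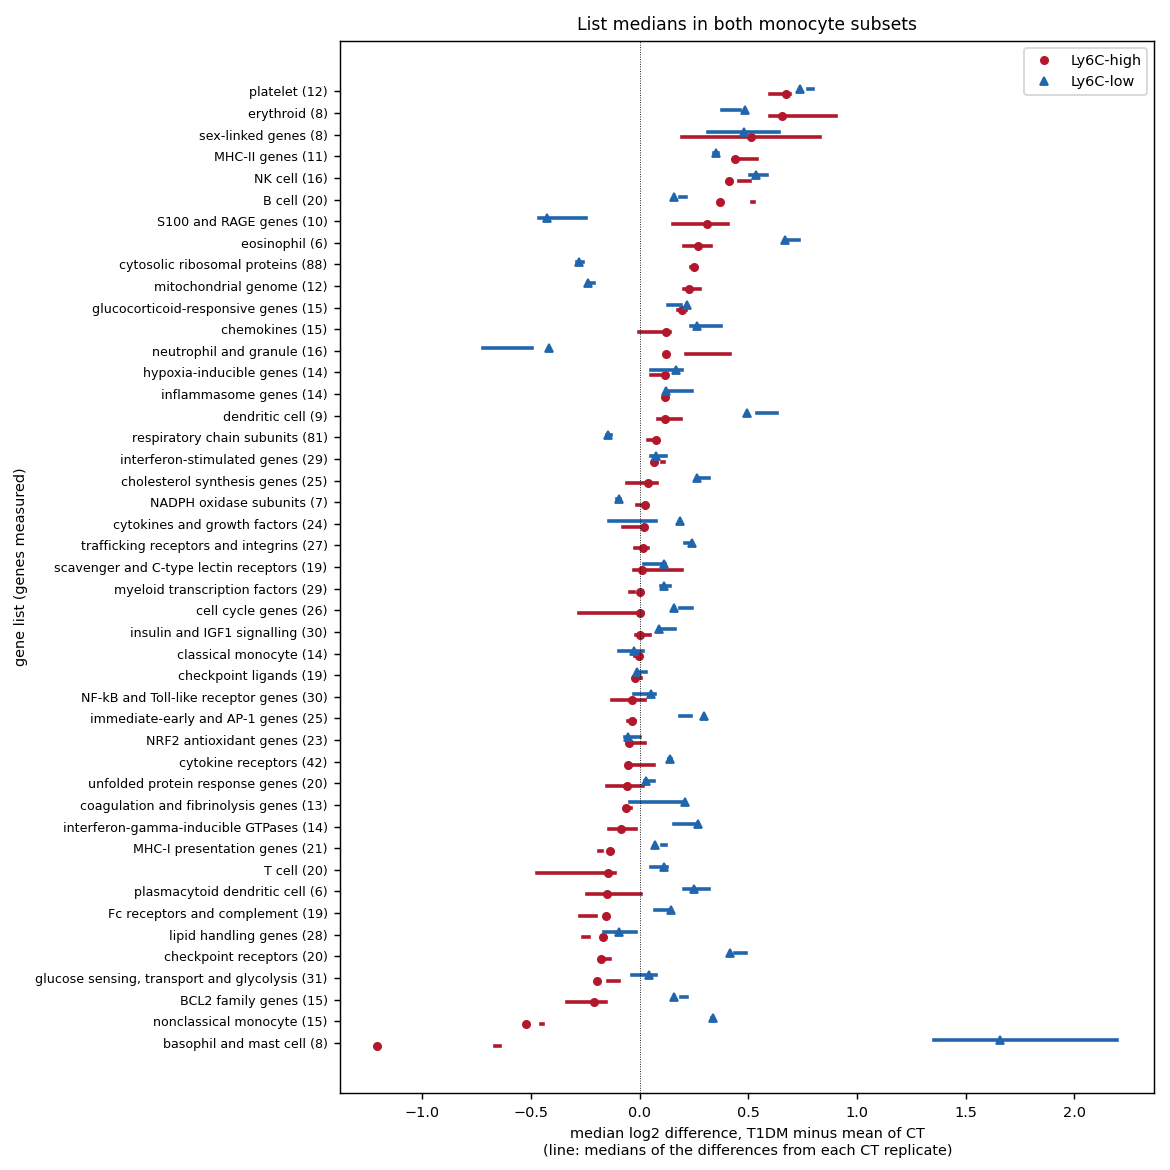
Median log2 difference, T1DM minus the CT mean (horizontal axis), of 45 gene lists (vertical axis, with the number of genes measured) in Ly6C-high (red circles) and Ly6C-low MCs (blue triangles). Lines join the medians of the differences from each CT replicate, and a median of differences from the CT mean can fall outside them. Platelet, erythroid and MHC-II lists were higher in both subsets, while nonclassical MC markers had medians of -0.52 (Ly6C-high) and 0.34 (Ly6C-low).

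The difference between subsets was tested in limma as the T1DM effect in Ly6C-high minus that in Ly6C-low MCs. At an adjusted p under 0.01 there were 0 genes, with a smallest adjusted p of 0.164 and 1810 genes at an unadjusted p under 0.05. Opposite directions in the subsets are therefore descriptions of single T1DM libraries.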

How the data were processed

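Bulk RNA-Seq of sorted Ly6C-high MCs was analysed from 2 CT libraries and 1 T1DM library, with the other 5 libraries of the series entering the limma fit. The authors quantified reads with Kallisto (version 0.45), used R 3.6.1 with tximport, version 1.12.3, to summarize them per gene, and deposited normalized log2 values. The labels name build mm10. The scaling, the filter and any adjustment between sequencing runs are not given in the sources used here. No pseudocount was added. The table holds 16485 different symbols, since 1 occurs in a pair of entries, and 21 are dates made by a spreadsheet, which were counted but not named. limma 3.58.1 (6 group means, trend, Benjamini-Hochberg) ran in R 4.3.3. Other steps used Python 3.11.15 with pandas 2.3.3, numpy 2.4.6 and matplotlib 3.10.9. The methods were tested on simulated data.

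Named genes were, among genes set apart, up to 15 in each direction with a mean of at least 5 and up to 10 with a mean of 3 to 5, without predicted genes and pseudogenes, besides list members that were set apart, defining markers and genes of the study's text. Further list members were named for their role. Some genes that the rule names are not reported here. The 45 lists, the members and the tests were chosen with earlier results of these data known. Shared 31-base sequences were counted in GENCODE M21 transcripts. Without counts there is no counting error, and the CT difference is the only measure of precision.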

Additional observations from a re-analysis of the deposited data

Results flagged for a closer look

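Opposite directions in the subsets drew attention to the following results. For each gene, the T1DM Ly6C-high library lay on one side of both CT Ly6C-high libraries and the T1DM Ly6C-low library on the other side of both CT Ly6C-low libraries. Only named genes set apart in Ly6C-high MCs and differing by at least 0.5 in Ly6C-low MCs were taken. Genes with smaller opposite differences in Ly6C-low MCs, such as C5ar2, Mettl26 and Atp2b4, are therefore left out. For each list, the median difference was at least 0.2 in size with opposite signs in the subsets. Values are the T1DM minus CT difference in Ly6C-high MCs minus that in Ly6C-low MCs, on the log2 scale. For list medians this difference was not tested. For single genes limma gave 0 differences at an adjusted p under 0.01, so none of them is shown to differ between subsets. As given above, diabetic minus CT means had an SD of 0.185 and T1DM minus T2DM means one of 0.520. These SDs are over different numbers of libraries and are not directly comparable. The part of any adjustment between CT and diabetic libraries in the opposite directions was not tested.

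Among lists, nonclassical MC markers gave -0.86, basophil and mast cell genes -2.87, S100 genes 0.74, cytosolic ribosomal protein genes 0.53 and genes of the mitochondrial genome 0.46. With members of a mean of at least 1 only, the Ly6C-high median of basophil and mast cell genes was 0.0614 in place of -1.21, and that of S100 genes 0.16 in place of 0.31. Without CT replicate 1 the S100 median was 0.15.

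Among genes higher in T1DM Ly6C-high and lower in T1DM Ly6C-low MCs, the granule and calprotectin genes Ltf (7.26), S100a9 (4.91) and S100a8 (3.49) went together. Serpinb2 gave 2.93, Als2cl 4.60, Oasl1 3.14, Lrsam1 2.57 and Gatb 2.17.

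Among genes lower in Ly6C-high and higher in Ly6C-low MCs, the cell division genes Ncapd2 (-3.43), Top2a (-2.57) and Ccnb1 (-2.16) went together. So did the early response factors Egr2 (-3.99) and Egr1 (-2.29). Lymphocyte and checkpoint genes were Cd3e (-2.80), Lck (-1.54), Icos (-3.22), Timd4 (-3.34) and Tnfrsf9 (-2.35). Chemokine and cytokine pathway genes were Ccl17 (-2.84), Cxcl13 (-1.85), Acvr2b (-2.09), Socs1 (-2.66) and Ifi44 (-2.73). The others were Fcer1a (-5.50), Aldoc (-4.40), C1qa (-3.01), Bcl2a1a (-2.99), Tmco6 (-2.09), Igf2r (-2.03), Pparg (-1.71) and Pecam1 (-1.62).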

How the results depend on the processing

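Counts depended on how low values were treated. With genes of a mean of at least 1 only, 218 were set apart as higher and 177 as lower, and 298 and 225 lay past 2-fold, against 843 and 815 without the filter. After adding 1 on the linear scale, 222 were higher and 137 lower, against 531 and 523 as reported, and 260 and 171 lay past 2-fold. At a threshold of 0.5 the counts were 1362 and 1396. With 1 CT library left out there is no CT spread and no gene can be set apart, and 1130 to 1168 genes lay past 2-fold as higher and 1039 to 1087 as lower.

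For T1DM against CT, where a difference over 1 was required, limma called 1 gene as higher with the low-value filter, AW822252 (adjusted p = 0.00859). Without that requirement it gave 6 genes with the filter (AW822252, Fn1, Gm20594, Hba-a2, Hbb-bs and Lars2), 2 after quantile normalization (Lars2 and Lyz2) and 1 after adding 1 (Hbb-bs). For the difference between subsets, where no size was required, it gave 1 gene as higher with that filter, Hbb-bs, and 2 higher (Lyz2, Ahnak) and 1 lower (Lars2) after quantile normalization, all at an adjusted p under 0.01. With each CT library left out, limma gave 0 genes of any size, with 1611 to 1950 at an unadjusted p under 0.05 for T1DM against CT. The replicate number as a replicate block gave 0 genes, with 1124 at an unadjusted p under 0.05. The numbers do not pair the samples, since the replicate differences of the subsets correlated across genes at 0.01.

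No named gene that was set apart changed direction. Leaving out a CT library or adding 1 could not change it, since such a gene lies outside both CT values by definition. Under quantile normalization, centring of each library on its median or the replicate block a change was possible. Of 192 named genes, set apart or not, 187 kept their sign under quantile normalization. The others were at most 0.959 in size before it. Among list medians, that of basophil and mast cell genes became 0.0614 with the low-value filter. The erythroid median went from 0.66 to 0.24 under quantile normalization. Without CT replicate 1, 38 of 45 medians kept their sign, and the others were at most 0.148 in size. Without CT replicate 2, 36 did, and the others were at most 0.0557. In 33 of 45 lists, leaving out either CT library changed the sign or moved the median by over 1.5 times. No counts were given, so the CT spread is the only limit on low values.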

Other observations

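Position was examined after the values were seen. Among the 8846 genes with a mean of at least 3 and a RefSeq position, 1.23% were set apart. Chromosome 17 had 4 higher and 11 lower among 474 genes (3.16%), including Mettl26, Itpr3, Dnah8, H2-Q6 and Treml4 as lower and Rps18, Vars2 and Zfp318 as higher. Chromosome Y had 3 of 5. The other chromosomes lay between 0.234% and 2.05%.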
